A study of Mus musculus with 4 samples.

Results

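Myc and 33 ribosome biogenesis factors, 34 genes of the 31053 in the files, were followed across the cell types of the mouse inguinal fat depot in the cold. The 34 genes were selected by symbol with cold against room-temperature values in T cells, fibroblasts, vascular endothelium and luminal epithelium in view. In those cells the values of the 34 genes are therefore given as a description. How many passed a threshold there is printed once beside the share over all genes, and nothing is read from it. Tests on these genes are read only in macrophages, dendritic cells, B cells, natural killer cells and pericytes, whose cold contrast did not enter the choice.

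Single-cell RNA libraries (10x Chromium 3′ v3) were made from the stromal vascular fraction, the cells of fat that remain once the mature adipocytes are removed, of the fourth inguinal depot of C57BL/6 mice aged 8 weeks. The cold group holds 2 libraries from mice kept at 4 °C for 24 h, and the control group holds 2 libraries from mice kept at room temperature for the same time. The strain, age, depot and digestion with collagenase are shared by both groups, and no allele or drug was used. Not given in the sources used here were the sex of the mice, how many made up a library and the temperature of the room in degrees. The p-values below then measure only the spread between these libraries. With 2 libraries against 2, an exact two-sided permutation test of a single value cannot go below p = 0.333, so none is given.

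Myc is a transcription factor that, bound to Max, raises the output of genes for cell growth, and genes for making ribosomes are among its best known targets. A ribosome is assembled in the nucleolus: RNA polymerase I transcribes the ribosomal RNA precursor, small nucleolar ribonucleoproteins modify it, and assembly factors fold and cut it into the small and the large subunit. T cells raise Myc when their receptor is engaged, and dividing cells of any type make more ribosomes than resting ones.

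Myc and Max bind the E-box CACGTG, a palindrome that reads the same on both strands. RefSeq promoter windows on GRCm38.p6, each 300 bases long with the last 50 after the start site, were at hand for 28 of the 34 genes (32 windows). Myc and Rrs1 were among the genes without a window. The E-box stood in 4 of the 32 windows (12.5%), against 7.15% of all 32851 windows. In each of the 4 it lay in the 50 bases after the start, where 1.08% of all windows hold one. The planned comparison was that of whole windows, so nothing is read from the share in the 50 bases. The 4 are shown because they are the members with a canonical E-box in the window. Capitals mark the E-box, and each run is written 5′ to 3′ on the gene's own strand. The Utp20 site lies at chr10:88826765-88826787 (minus strand), the Pes1 site at chr11:3963967-3963992 (plus), the Mybbp1a site at chr11:72441357-72441376 (plus) and the Wdr43 site at chr17:71616222-71616247 (plus). In GENCODE each E-box falls within the 5′ UTR of at least 1 transcript, and those of Utp20 and Mybbp1a also in exons of other transcripts. A match of letters is a description and shows no binding.
Utp20: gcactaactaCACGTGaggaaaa
Pes1: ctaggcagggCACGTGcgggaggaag
Mybbp1a: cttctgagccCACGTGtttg
Wdr43: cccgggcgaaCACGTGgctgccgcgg

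The cold libraries held 4840 and 3871 cell barcodes and the control libraries 6339 and 4168, and each had between 35198164 and 55160902 UMIs (unique molecular identifiers, each standing for 1 captured RNA molecule). After filters 2971 to 5232 cells per library remained, at a median of 6771 to 7602 UMIs. Any 2 libraries shared 5 to 10 barcodes. Clusters were named from marker genes, so a class name means cells that resemble the type, and 10 classes had at least 20 cells in every library. T cells numbered 997 and 580 in cold against 481 and 441 at room temperature. The marker genes of T cells (Cd3d and 3 others) summed to 2175 and 2199 UMIs per 1000000 (CPM) in cold against 2231 and 2262 at room temperature in that class. Basal/myoepithelial cells, with 18 in cold library 2, were not tested.

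Myc (chr15:61985391-61990374, plus strand) was higher in cold in T cells. Its level there was 42.8 and 52.9 CPM in the cold libraries and 15.2 and 11.9 CPM at room temperature, from 259, 220, 34 and 41 UMIs. Both cold libraries lay far above both room-temperature libraries, and the log2 fold change was 1.76 ± 0.18 (SE, n = 2 against 2), a ratio of 3.39. Over the alternatives tried, leaving out each library among them, it lay between 1.61 and 1.89. At room temperature T cells held the second lowest mean level of Myc among the 10 classes (13.6 ± 2.34 CPM, SD), and in cold the sixth highest (47.8 ± 7.18 CPM).

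The higher Myc level was seen in each of the 4 clusters of the T-cell class. In the largest cluster, led by Cd8b1, Myc stood at 44.4 and 47.6 CPM in cold against 13.3 and 9.21 at room temperature. In the cluster led by Tnfrsf4 and Ctla4, genes of regulatory T cells, it stood at 31.0 and 37.0 CPM in cold against 24.0 and 22.0 at room temperature. The cluster led by Cxcr6 held 40.3 and 81.0 CPM in cold, and only 3 and 1 Myc UMIs (22.5 and 10.8 CPM) at room temperature. Its leading genes include Il1rl1, a marker of the innate lymphoid cells called ILC2, so it may not hold T cells alone. At clustering resolution 2 a cluster of 141 cells led by Cxcr6, Il7r and Il1rl1 was called mixed, ILC2 and T. Without the Cxcr6-led cluster the log2 fold change of Myc in the T-cell class was 1.72. In the proliferating cluster, led by Pclaf, Birc5 and Mki67, Myc stood at 41.8 and 54.2 CPM in cold against 14.5 and 10.6 at room temperature. In none of the 4 did the groups overlap, and the gap was narrowest in the Tnfrsf4-led cluster. T cells were also split by their coreceptor. Cells with a UMI of Cd8a or Cd8b1 but not Cd4 held 45.5 and 64.4 CPM in cold against 14.2 and 10.8 at room temperature, and cells with Cd4 alone held 48.7 and 26.3 CPM in cold against 15.2 and 10.4 at room temperature. Cells with neither held 32.5 and 58.9 CPM in cold against 16.2 and 15.2 at room temperature. In the few cells with both (9 to 35 per library) the groups overlapped, at 15.9 and 32.8 CPM in cold against 26.0 and 15.9 at room temperature.

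More T cells carried a Myc UMI in cold. The share was 17.2% and 20.9% of T cells in cold against 6.24% and 7.26% at room temperature, at median depths of 4677, 6351, 3960 and 7320 UMIs per cell. After each cell was thinned to 2000 UMIs, which left out 64, 124, 39 and 31 shallower cells, the share was 6.86% (95% exact binomial interval 5.32 to 8.68) and 8.55% (6.15 to 11.5) in cold and 2.04% (0.935 to 3.83) and 2.68% (1.35 to 4.75) at room temperature. The intervals cover counting error within a library only and compare no groups. Macrophages, which held the lowest Myc level at room temperature, gave 2.30% and 2.84% in cold against 2.10% and 2.72% at room temperature after the same thinning, and the room-temperature shares of T cells lay at that level. No class here is known to lack Myc altogether.

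**Figure D1:**
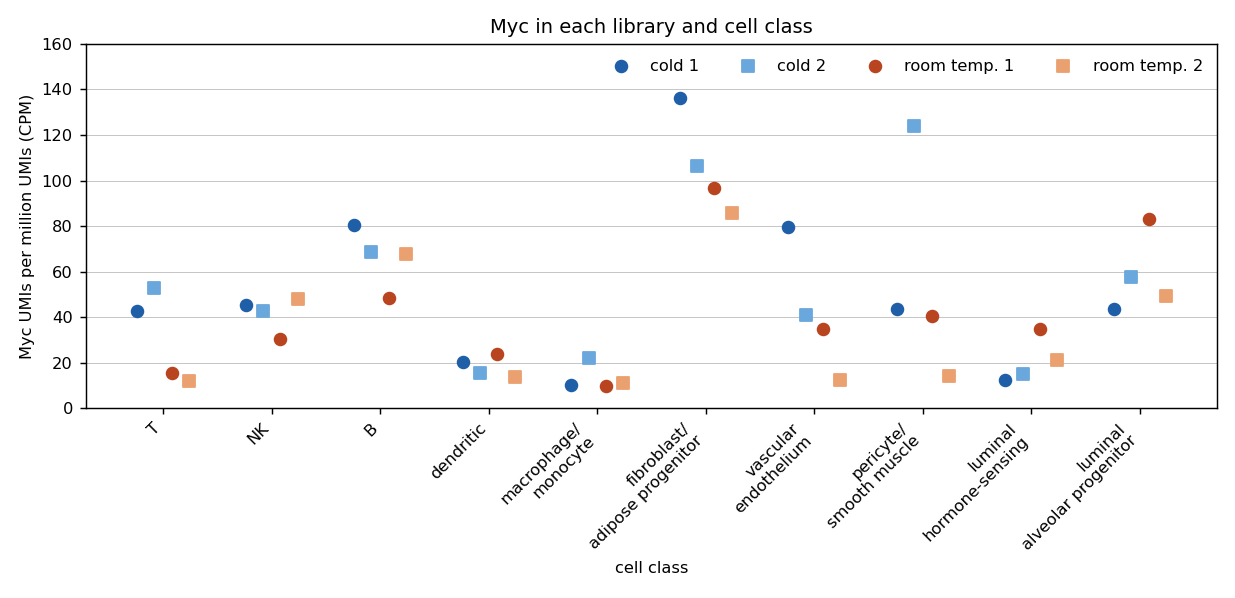
Myc level (CPM, linear axis from 0) in each library for the 10 classes. Circles and squares are the 2 libraries of a group, blue for cold and orange for room temperature; in T cells the cold libraries (42.8 and 52.9) stand apart from the room-temperature libraries (15.2 and 11.9), and in luminal hormone-sensing cells the order is the opposite.

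Fibroblasts and adipose progenitors held the highest mean Myc level of the 10 classes in both groups. The level was 136 and 107 CPM in cold against 96.9 and 85.9 CPM at room temperature, with a log2 fold change of 0.45 ± 0.17 (SE). The groups did not overlap, but the gap between cold library 2 and room-temperature library 1 was small, and without cold library 1 the log2 fold change was 0.22. The 3 fibroblast clusters entered the class in unequal shares. The cluster led by Igfbp6, with Dcn and Pi16, held 15.6% and 29.0% of the fibroblasts from the cold libraries against 48.0% and 57.2% of those from the controls. Within it Myc stood at 274 and 174 CPM in cold against 129 and 123 at room temperature. The Cxcl13-led cluster held 100.5 and 81.5 CPM in cold against 78.4 and 52.8 at room temperature, and the Col3a1-led cluster 185 and 78.9 in cold against 57.7 and 34 at room temperature. Cold was higher in each cluster, without overlap.

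In vascular endothelium Myc stood at 79.6 and 40.8 CPM in cold against 34.6 and 12.2 CPM at room temperature, with a log2 fold change of 1.42 ± 0.47. The libraries of each group differed widely among themselves, and the lower cold library lay just above the higher room-temperature library. Without cold library 1 the log2 fold change was 0.84, and without room-temperature library 1 it was 2.32. With doublets kept it was 1.01. At clustering resolution 2, where clusters that also carried lymphatic or pericyte markers were set apart as mixed, 25 of the 34 genes passed the filter and Myc did not. Lymphatic markers summed to 424 and 600 CPM in cold against 916 and 68.5 at room temperature in the endothelial class, and their part in the Myc value was not tested. In the larger cluster, led by Fabp4 and Gpihbp1 of capillary endothelium, Myc was 88.5 and 40.6 CPM in cold against 27.0 and 9.09 at room temperature. In the Plvap cluster it was 62.1 and 40.9 CPM in cold against 50.3 and 34.1 at room temperature, where the groups overlapped.

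Luminal hormone-sensing cells, the ductal cells that carry the prolactin receptor, showed the opposite order. Myc stood at 12.5 and 15.0 CPM in cold against 34.6 and 21.2 CPM at room temperature, with a log2 fold change of -1.03 ± 0.30. The mix of the 2 clusters in this class differed between the libraries: the Upk3a-led cluster made up 6.89% and 23.0% of it in cold against 78.7% and 25% at room temperature. That cluster held more Myc, at 16.1 and 24.0 CPM in cold against 38.0 and 38.9 at room temperature. The other cluster, led by Wfdc2 and Prlr, held 12.2 and 11.2 CPM in cold against 19.6 and 12.7 at room temperature. Within both clusters cold was lower without overlap, and in the second alone the log2 fold change was -0.42. The share of the class that is Upk3a-led moved with the Myc level over the whole class, and its part in the value of -1.03 was not tested beyond this split.

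The other epithelial classes did not share 1 direction. In luminal alveolar progenitors Myc stood at 43.5 and 57.7 CPM in cold against 82.9 and 49.2 CPM at room temperature, the groups overlapping, with a log2 fold change of -0.38 ± 0.33. Basal/myoepithelial cells gave 165 and 252 CPM in cold (55 and 87 UMIs from 29 and 18 cells) and 41.8 and 36.3 CPM at room temperature (26 and 38 UMIs from 52 and 93 cells). These are values from few cells and were not tested. A cluster of 703 cells with markers of both luminal types held 16.8 and 21.3 CPM in cold against 33.2 and 35.0 at room temperature, in the order of the hormone-sensing cells. With hormone-sensing, alveolar and basal cells summed, Myc had the lowest log2 fold change of the 34 genes, -0.70, and the median of the 34 was -0.13. The make-up of this sum differed between libraries. Hormone-sensing cells numbered 508 and 492 in cold against 414 and 132 at room temperature, and alveolar cells 111 and 68 against 40 and 85. Basal cells numbered 29 and 18 in cold against 52 and 93 at room temperature. The part of this make-up in the pooled values was not tested.

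In the classes that took no part in the choice of genes, Myc did not pass the test (edgeR quasi-likelihood F-test, Benjamini-Hochberg adjustment). In B cells it stood at 80.4 and 68.4 CPM in cold against 48.6 and 67.6 at room temperature, with a log2 fold change of 0.42 ± 0.28 (adjusted p = 0.849, edgeR). The groups came close, 68.4 against 67.6 CPM. Macrophages and monocytes gave 10.2 and 22.0 CPM in cold against 9.69 and 11.2 at room temperature, with a log2 fold change of 0.58 ± 0.35 (adjusted p = 0.548, edgeR). Here cold library 2 alone was high, and without it the log2 fold change was -0.05. T-cell markers in the macrophage class (4 of 4 detected) summed to 97.5 and 239 CPM in cold against 29.6 and 105 at room temperature, highest in the same library. Their part in the Myc value was not tested. Natural killer cells gave 45.1 and 42.4 CPM in cold against 30.5 and 48.1 at room temperature (log2 fold change 0.12 ± 0.36, adjusted p = 0.926, edgeR), and dendritic cells 20.3 and 15.4 in cold against 23.6 and 13.7 at room temperature (-0.09 ± 0.38, adjusted p = 0.967, edgeR). The groups overlapped in both. In pericytes Myc did not pass the filter on low counts, with 10, 20, 11 and 2 UMIs.

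The counts in the cells that chose the set come first. In T cells all 34 genes passed the filter and 1, Myc, passed the adjusted p threshold of 0.05, where 1.88% of 10130 genes did. Both cold libraries were above both room-temperature libraries for 22 of the 34, where 32.2% of all genes were. In fibroblasts all 34 passed the filter and 1, Rrs1, passed the threshold, where 2.6% of genes did, and 6 of 34 were higher without overlap, where 21.8% of genes were. In endothelium 33 passed the filter (Rrp12 did not) and 0 passed the edgeR threshold (0.0% of genes did). At an unadjusted p under 0.05 there were 2, where 10.8% of all genes were, and DESeq2 called 0. There 7 of 33 were higher without overlap, where 19.0% of genes were. In hormone-sensing cells all 34 passed the filter and 0 the edgeR threshold (0.00792% of genes did). An unadjusted p under 0.05 was reached by 5, where 7.39% of all genes did, and DESeq2 called 0. There 19 of 34 were lower without overlap, where 22.3% of genes were. In alveolar progenitors 24 passed the filter and 0 the edgeR threshold (1.67% of genes did). An unadjusted p under 0.05 was reached by 5, where 14.8% of all genes did, and DESeq2 called 0. Of the 24, 14 were lower without overlap, where 18.2% of genes were. Since these contrasts entered the choice of the genes, nothing is read from these 5 sets of counts.

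In the 5 other classes no member passed the edgeR threshold. In macrophages and monocytes it was 0 of 34 (0.452% of genes passed), with 3 at an unadjusted p under 0.05 (12.3% of all genes were) and 0 by DESeq2, and 13 of 34 were higher in cold without overlap, where 23.9% of genes were. In dendritic cells it was 0 of 30 (0.227% of genes passed), with 0 at an unadjusted p under 0.05 (9.81% of all genes were) and 0 by DESeq2. In natural killer cells it was 0 of 23 (1.58% of genes passed), again with 0 (13.2% of all genes) and 0. In B cells it was 0 of 33 (0.0% of genes passed), with 3 at an unadjusted p under 0.05, Nop10, Ddx21 and Nolc1, all lower in cold, where 5.63% of all genes were under it, and 0 by DESeq2. In pericytes 9 members passed the filter and 0 the threshold (0.0% of genes passed), with 1 at an unadjusted p under 0.05 (6.67% of all genes were) and 0 by DESeq2. The member nearest the threshold among these classes, named after its values were seen, was Polr1a in macrophages, at 21.3 and 29.1 CPM in cold against 14 and 13.4 at room temperature (log2 fold change 0.85 ± 0.21, adjusted p = 0.181, edgeR).

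The median log2 fold change of the members was 0.27 in T cells, 0.18 in fibroblasts and 0.04 in endothelium, and -0.23 in hormone-sensing cells and -0.51 in alveolar progenitors. Over all genes tested the median lay between -0.02 and 0.01 in these classes. In the other classes the members' median was 0.22 in macrophages, 0.14 in natural killer cells, 0.05 in dendritic cells, -0.03 in B cells and -0.07 in pericytes, where only 9 members entered it.

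**Figure D2:**
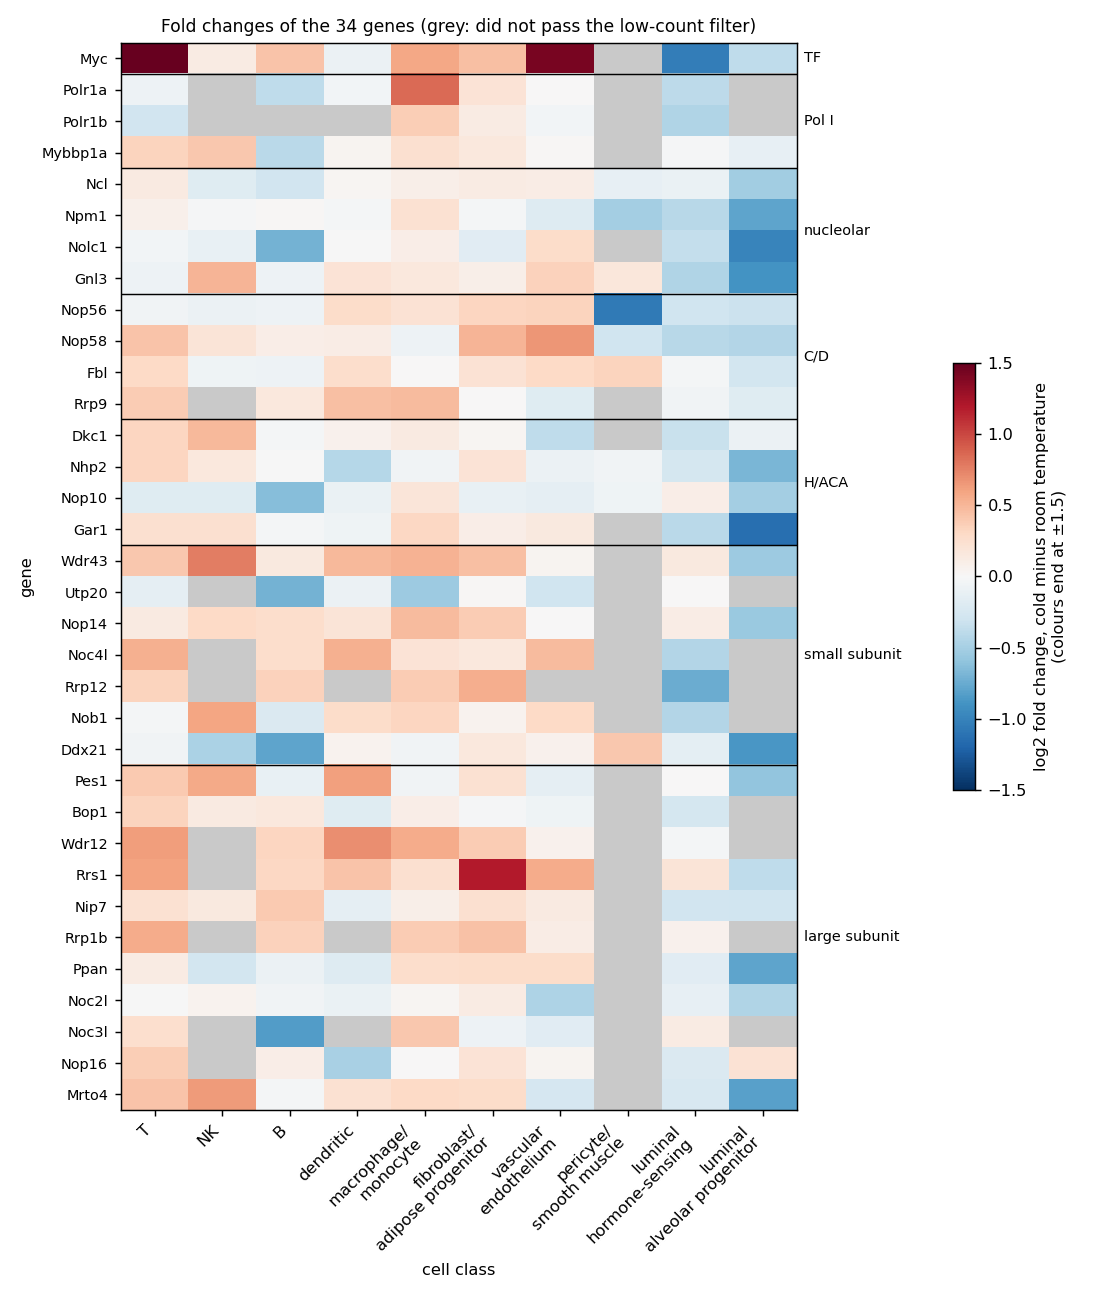
Log2 fold change (cold minus room temperature, colour scale ending at ±1.5) of the 34 genes, grouped by role in rows, in the 10 classes in columns; grey cells did not pass the low-count filter. The 2 luminal columns at the right are mostly blue (26 of 34 and 23 of 24 genes below 0), and Myc in T cells (1.76) and endothelium (1.42) and Rrs1 in fibroblasts (1.19) are the deepest red cells.

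RNA polymerase I transcription was represented by Polr1a and Polr1b, the catalytic subunits of the enzyme, and Mybbp1a, a nucleolar regulator of transcription. In T cells Polr1a stood at 24.1 and 19.2 CPM in cold against 24.6 and 20.1 at room temperature, and Polr1b at 10.6 and 7.46 in cold against 10.8 and 10.8 at room temperature. Neither was higher in cold. Mybbp1a stood at 75.0 and 66.2 CPM in cold against 54.2 and 53.0 at room temperature, a log2 fold change of 0.34 ± 0.14. In the other cells that chose the set, the log2 fold changes of the 3 genes lay between 0.12 and 0.20 in fibroblasts, -0.04 and 0.02 in endothelium, and -0.45 and -0.02 in hormone-sensing cells. In alveolar progenitors only Mybbp1a passed the filter, at -0.12 ± 0.31.

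The nucleolar proteins were Ncl (nucleolin) and Npm1 (nucleophosmin), abundant chaperones of the nucleolus, Nolc1, which binds snoRNPs there, and Gnl3 (nucleostemin), a GTPase of dividing cells. In T cells their log2 fold changes lay between -0.08 and 0.14. Npm1 stood at 1985 and 1839 CPM in cold against 1684 and 1792 at room temperature there, but Npm1 has processed pseudogenes, so how reads were split among the copies is uncertain. In alveolar progenitors all 4 were lower in cold, with log2 fold changes from -0.99 to -0.52. Nolc1 stood there at 19.1 and 12.0 CPM in cold against 46.6 and 22.9 at room temperature (-0.99 ± 0.48), from as few as 5 UMIs in a library. Gnl3 stood at 47.0 and 36.0 CPM in cold against 88.1 and 65.1 at room temperature (-0.90 ± 0.31). In hormone-sensing cells Gnl3 stood at 44.2 and 44.6 CPM in cold against 61.0 and 64.0 at room temperature (-0.46 ± 0.11), with little spread within either group. In endothelium Gnl3 pointed the other way, at 52.3 and 43.7 CPM in cold against 42.3 and 35.0 at room temperature (0.35 ± 0.18).

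Box C/D snoRNPs, which guide methylation of ribosomal RNA, were represented by Nop56, Nop58, the methyltransferase Fbl (fibrillarin) and Rrp9. Nop58 in endothelium stood at 75.0 and 66.7 CPM in cold against 45 and 46.2 at room temperature (log2 fold change 0.67 ± 0.15), without overlap. In T cells it stood at 151 and 143 CPM in cold against 114 and 96.3 at room temperature (0.43 ± 0.13), again without overlap. In fibroblasts it stood at 97.2 and 45.6 CPM in cold against 50.7 and 56.3 at room temperature (0.50 ± 0.33). There cold library 1 alone was high, and without it the log2 fold change was -0.21. In hormone-sensing cells Nop58 was lower, at 75.1 and 75.4 CPM in cold against 106 and 99.5 at room temperature (-0.42 ± 0.13). Its partner Nop56 stood in T cells at 147 and 137 CPM in cold against 153 and 131 at room temperature, the groups overlapping. Fbl in T cells stood at 226 and 213 CPM in cold against 163 and 179 at room temperature (0.30 ± 0.13).

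Box H/ACA snoRNPs, which guide the conversion of uridine to pseudouridine, consist of the enzyme Dkc1 (dyskerin) with Nhp2, Nop10 and Gar1. In T cells 3 of the 4 were higher in cold without overlap: Dkc1 had a log2 fold change of 0.32 ± 0.13, Nhp2 of 0.32 ± 0.12 and Gar1 of 0.24 ± 0.13. Nop10 stood at 222 and 245 CPM in cold against 253 and 255 at room temperature (-0.19 ± 0.11), so the 4 proteins of this particle did not share 1 direction. In alveolar progenitors Gar1 had the largest change of the set, at 26.1 and 33.6 CPM in cold against 80.3 and 50.6 at room temperature (-1.14 ± 0.35), from 15, 14, 31 and 73 UMIs. The groups did not overlap. In fibroblasts and endothelium the 4 genes lay between -0.38 and 0.21.

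Among the 7 factors of the small subunit, Wdr43, Utp20, Nop14, Noc4l and Rrp12 act in or with the processome that folds and cuts the precursor, Ddx21 is an RNA helicase, and Nob1 makes the final cut of the small-subunit RNA. In T cells Noc4l stood at 27.2 and 26.5 CPM in cold against 19.3 and 16.6 at room temperature (log2 fold change 0.53 ± 0.17), and Wdr43 at 75.3 and 77.5 CPM in cold against 50.6 and 59.4 at room temperature (0.40 ± 0.14). Ddx21 was level in T cells, at 116 and 117 CPM in cold against 116 and 116 at room temperature. Wdr43 in fibroblasts stood at 26.0 and 36.3 CPM in cold against 21.4 and 25.2 at room temperature (0.45 ± 0.17), and cold library 1 lay just above the higher control. In alveolar progenitors Ddx21 stood at 19.1 and 28.8 CPM in cold against 46.6 and 37.4 at room temperature (-0.88 ± 0.38). In hormone-sensing cells Nob1 stood at 20.1 and 17.1 CPM in cold against 28.1 and 22.8 at room temperature (-0.44 ± 0.21). The promoters of Utp20 and Wdr43 carry the E-box shown above. Their log2 fold changes in T cells were -0.13 and 0.40.

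The 11 factors of the large subunit include Pes1, Bop1 and Wdr12, which form 1 complex, and Nip7, Rrp1b, Ppan, Noc2l, Noc3l, Nop16 and Mrto4. The remaining factor, Rrs1, helps place the shortest RNA of the large subunit and its proteins in the growing particle. Rrs1 was the member of the set that stood out in fibroblasts. Rrs1 (chr1:9545408-9547455, plus strand) was at 63.8 and 54.4 CPM in cold against 27.6 and 25.5 CPM at room temperature, from 388, 198, 332 and 100 UMIs. The groups were far apart, with a log2 fold change of 1.19 ± 0.15, a ratio of 2.29. The order held in all 3 fibroblast clusters, at 62.9 and 49.0 against 25.2 and 23.7 CPM in the Igfbp6-led cluster, 59.6 and 51.0 against 25.8 and 26.4 in the Cxcl13-led cluster, and 84.4 and 81.0 against 33.9 and 28.3 in the Col3a1-led cluster, cold first. Leaving out any 1 library left the fibroblast log2 fold change of Rrs1 between 1.03 and 1.34. The 33 factors summed differed far less, at 1674 and 1691 CPM in cold against 1492 and 1673 at room temperature in the Igfbp6-led cluster, where the groups nearly met.

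Rrs1 was also higher in cold in T cells, at 34.7 and 30.8 CPM against 22.0 and 19.8 at room temperature (log2 fold change 0.60 ± 0.17), and in endothelium, at 25.6 and 25.9 CPM against 20.3 and 15.4 (0.56 ± 0.24). In macrophages it stood at 8.07 and 12.3 CPM in cold against 8.89 and 7.91 at room temperature, with a log2 fold change of 0.24 ± 0.28 (adjusted p = 0.769, edgeR). In B cells it stood at 39.5 and 36.2 CPM in cold against 32.8 and 29.0 at room temperature, with a log2 fold change of 0.31 ± 0.27 (adjusted p = 0.884, edgeR). It did not pass the test in either class. In T cells Wdr12 stood at 39.5 and 41.4 CPM in cold against 26.9 and 23.3 at room temperature (0.63 ± 0.14), and Rrp1b at 26.1 and 25.7 CPM in cold against 17.9 and 16 at room temperature (0.56 ± 0.17). The partners of Wdr12 in its complex, Pes1 and Bop1, had log2 fold changes of 0.40 ± 0.15 and 0.33 ± 0.16 in T cells, and for all 3 genes both cold libraries were above both others. Noc2l in endothelium stood at 16.5 and 23.0 CPM in cold against 29.1 and 26.0 at room temperature (-0.47 ± 0.25), lower in cold there, while in T cells it stood at 59.6 and 58.9 against 59.6 and 54.7.

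In T cells the values of the factors other than Myc differed with and without the proliferating cluster. That cluster held 43 and 60 of the cold T cells (4.31% and 10.3%) and 22 and 44 of those at room temperature (4.57% and 9.98%), so its share of cells overlapped between the groups. Its cells are deep, with a median of 19399 UMIs against 4922 in the largest cluster, and class levels are sums of UMIs. By UMIs it made up 23.3% and 33.3% of the class in cold against 15.4% and 21.9% at room temperature, higher in cold without overlap. The 33 factors summed to 9764 and 7097 CPM in cold against 6302 and 5809 at room temperature within it, higher in cold without overlap. In the largest cluster the same sum was 3475 and 3722 CPM in cold against 3985 and 3993 at room temperature, lower in cold without overlap. The Tnfrsf4-led cluster gave 3531 and 2845 CPM in cold against 3306 and 3305 at room temperature, and the Cxcr6-led cluster 2553 and 2747 in cold against 2619 and 2736 at room temperature, the groups overlapping in both. Without the proliferating cluster the median log2 fold change of the members in T cells went from 0.27 to -0.01, with 16 of 34 above 0 in place of 24. Myc kept a log2 fold change of 1.77, Wdr12 had 0.56 and Rrs1 0.36, while Rrp1b went to 0.13, Nop58 to -0.05 and Nhp2 to -0.01. Nolc1 went to -0.45, Nop56 to -0.32, Npm1 to -0.26 and Ncl to -0.24.

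**Figure D3:**
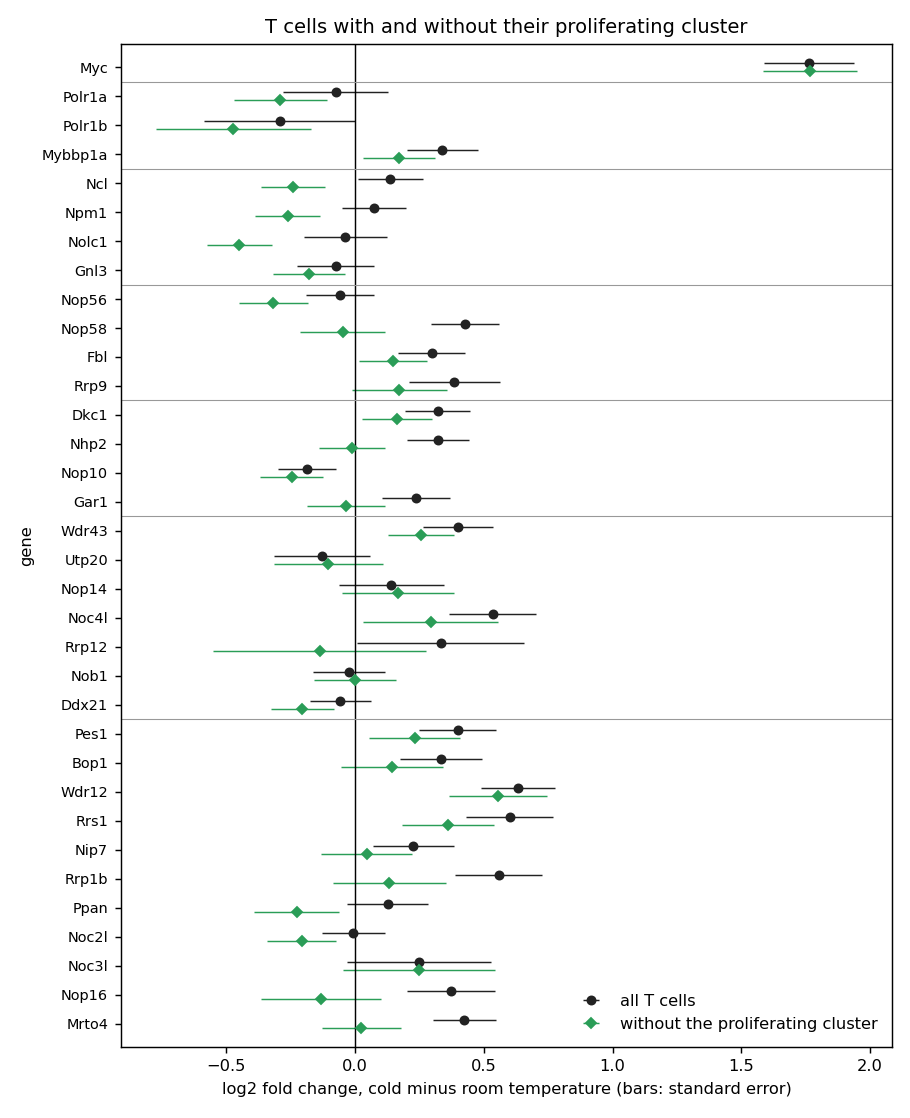
Log2 fold change (cold minus room temperature, bars for the standard error) of the 34 genes in all T cells (black circles) and without the proliferating cluster (green diamonds). Myc stays at 1.76 and 1.77, while most of the other genes shift to the left and their centre moves from above 0 to about 0.

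Cell-cycle genes were read over all T cells. These genes (15 listed, such as Mki67 and Mcm2) summed to 1005 and 1389 CPM in cold against 779 and 1043 at room temperature over all T cells, the groups overlapping. The median log2 fold change of the 15 was 0.38, with 13 above 0. At an unadjusted p under 0.05 there were 6, all higher in cold, where 949 of all 10130 genes were higher. For 10 of the 15 both cold libraries were above both others, where 32.2% of genes were. By edgeR 1 of the 15, the cyclin Ccnb1, rose and 0 fell, where 1.88% of all genes passed. Ccnb1 stood at 40.1 and 45.7 CPM in cold against 20.2 and 21.8 at room temperature (log2 fold change 0.95 ± 0.15, adjusted p = 0.0271, edgeR). By DESeq2 the adjusted p of Ccnb1 was 0.0741, and by edgeR it was 0.0535 without cold library 2, 0.0620 without room-temperature library 1 and 0.0511 without room-temperature library 2. The part of cell division in the factors' values was not tested beyond leaving the cluster out.

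**Figure D4:**
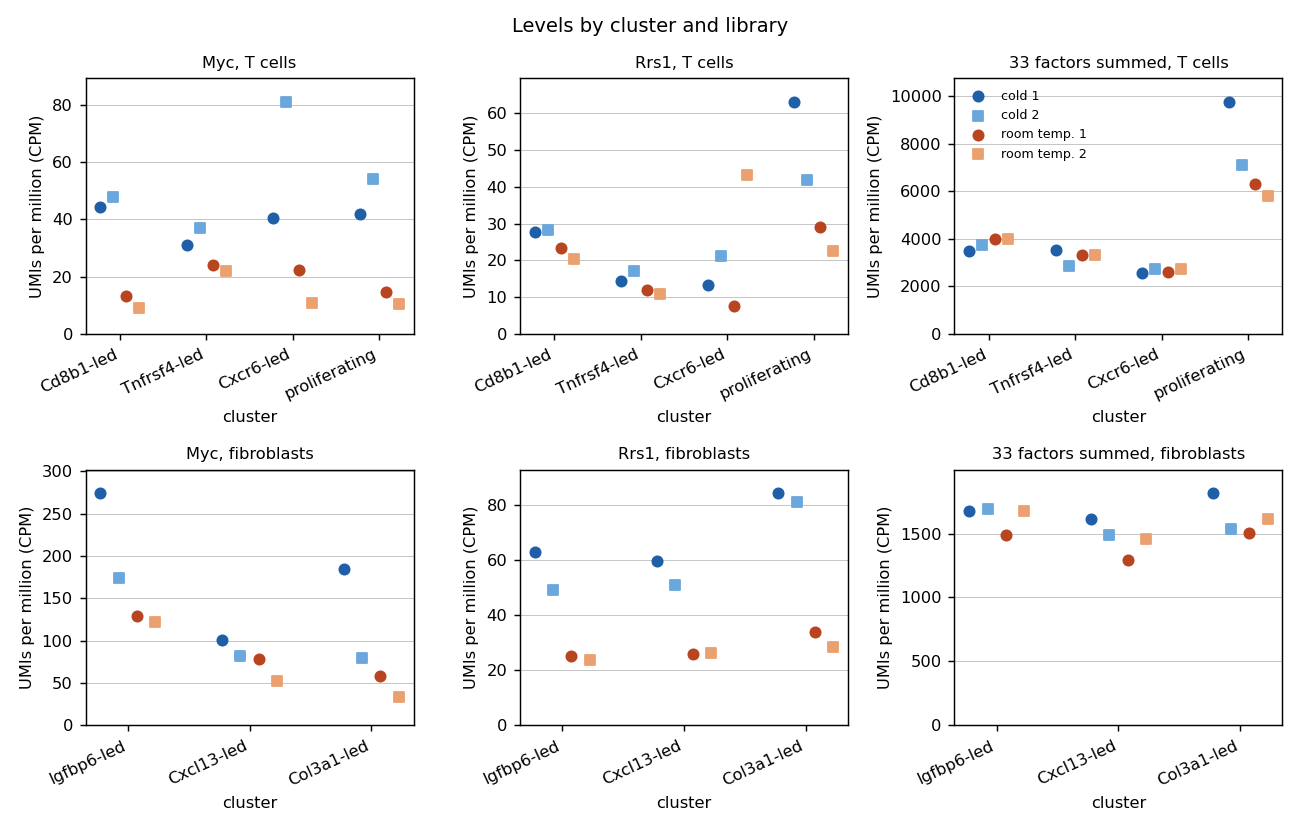
Levels (CPM, linear axes from 0) of Myc, Rrs1 and the 33 factors summed, by cluster and library, in T cells (upper row) and fibroblasts (lower row). Myc is higher in both cold libraries in every cluster shown, Rrs1 in every fibroblast cluster, while the summed factors are higher in cold in the proliferating T cells (9764 and 7097 against 6302 and 5809) and lower in the Cd8b1-led T cells.

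The alveolar values go with a difference in depth. The median was 3430 and 4175 UMIs per cell in cold against 9134 and 11514 at room temperature, from 111, 68, 40 and 85 cells. Among cells with at least 4000 UMIs, 22 members passed the filter, with a median log2 fold change of -0.47 in place of -0.51, and Gar1 had -0.90, Gnl3 -0.88 and Ddx21 -1.03. Cytosolic ribosomal proteins, the products that these factors assemble, were below 0 in 82 of the 82 tested in alveolar progenitors, with a median log2 fold change of -0.38. Of these 0 passed the edgeR threshold (1.67% of all genes did), 23 had an unadjusted p under 0.05 (14.8% of all genes did) and DESeq2 called 0. Among the cells of at least 4000 UMIs 75 of the 82 were below 0, with a median of -0.24. In hormone-sensing cells without the Upk3a-led cluster the members' median was -0.20 in place of -0.23. Cell-cycle genes summed to 128 and 384 CPM in cold against 925 and 228 at room temperature in hormone-sensing cells, and their part was not tested.

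Other genes of the pathway were read from lists, chosen with earlier results of these data known. In T cells, where 1.88% of all genes passed, 1 of 81 other ribosome assembly factors rose and 0 fell: Brix1, of the large subunit, stood at 61.8 and 61.1 CPM in cold against 35.4 and 32.9 at room temperature (log2 fold change 0.79 ± 0.13, adjusted p = 0.0271, edgeR). The median of the 81 was 0.30, and 0.13 without the proliferating cluster, where 0 passed by edgeR and Brix1 had an adjusted p of 0.119. Brix1 also missed the threshold without room-temperature library 1 (0.0577) or 2 (0.0811) and by DESeq2 (0.0900). Of 13 RNA exosome genes tested, which trim ribosomal RNA, 1 rose: Exosc4 stood at 42.6 and 39.2 CPM in cold against 19.7 and 20.7 at room temperature (0.95 ± 0.16, adjusted p = 0.0325, edgeR). Its adjusted p was 0.0646 without the proliferating cluster, 0.0654 to 0.0677 without cold library 1 or either room-temperature library (edgeR) and 0.0941 by DESeq2. In natural killer cells it rose too, at 48.9 and 37.7 CPM against 5.08 and 11.2 (2.26 ± 0.53, adjusted p = 0.0313, edgeR), but leaving out any 1 of the 4 libraries ended that call (0.0714 to 0.306), as did DESeq2 (0.669). Of 34 other known targets of Myc 1 rose in T cells, the purine synthesis enzyme Gart, at 57.3 and 60.9 CPM against 36.7 and 35.5 (0.64 ± 0.12, adjusted p = 0.0416, edgeR, and 0.267 without the proliferating cluster). Leaving out any 1 of the 4 libraries ended the call of Gart (adjusted p 0.0720 to 0.120, edgeR), as did DESeq2 (0.260). Of 13 other genes of RNA polymerase I and of 82 cytosolic ribosomal proteins 0 passed in T cells by edgeR and 0 by DESeq2. An unadjusted p under 0.05 was reached by 1 of the 13 and 1 of the 82, where 2025 of all 10130 genes did.

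Of 12 partners and antagonists of Myc tested in T cells, 3 fell and 0 rose, where 146 of all 10130 genes fell and 44 rose. DESeq2 called 2 lower. All 3 code for proteins that compete with Myc for Max or repress its sites. Mxd4 stood at 80.9 and 105 CPM in cold against 165 and 161 at room temperature (log2 fold change -0.89 ± 0.13, adjusted p = 0.0233, edgeR). Mnt stood at 17.8 and 17.1 CPM in cold against 30.5 and 30.3 at room temperature (-0.86 ± 0.16, adjusted p = 0.0421, edgeR). Mxi1, named after its values were seen since it lies under 20 CPM on average, stood at 10.9 and 8.18 CPM in cold against 22.4 and 27.9 at room temperature (-1.45 ± 0.24, adjusted p = 0.0305, edgeR). Without the proliferating cluster none of the 3 passed the threshold, at -0.69, -0.83 and -1.42 (adjusted p = 0.0669, 0.0730 and 0.0545, edgeR). Mxd4 also missed it without cold library 1 (0.0654), Mxi1 without room-temperature library 2 (0.0943) and Mnt without any 1 of the 4 libraries (0.0567 to 0.109) and by DESeq2 (0.229).

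In fibroblasts, where 2.6% of all genes passed by edgeR, 0 of 81 other assembly factors did, and 0 by DESeq2. At an unadjusted p under 0.05 there were 12, where 19.2% of all genes were. The median of the 81 was 0.17. Of 33 other Myc targets 1 rose, Pa2g4, a nucleolar growth regulator, at 58.9 and 57.7 CPM in cold against 37.4 and 40.8 at room temperature (log2 fold change 0.63 ± 0.11, adjusted p = 0.0474, edgeR). Leaving out any 1 of the 4 libraries ended that call (0.0834 to 0.300), as did DESeq2 (0.131). In alveolar progenitors, where 1.67% of all genes passed, 1 of 25 Myc targets fell, the mitochondrial chaperone Hspd1. Hspd1 stood at 110 and 91.3 CPM in cold against 282 and 175 at room temperature (-1.25 ± 0.30, adjusted p = 0.0481, edgeR). It missed the threshold without cold library 1 (0.342), cold library 2 (0.192) or room-temperature library 1 (0.143), in cells of at least 4000 UMIs (0.154) and by DESeq2 (0.109). In endothelium 0 of 79 other assembly factors passed by edgeR (0.0% of all genes did) and 0 by DESeq2. At an unadjusted p under 0.05 there were 7, where 10.8% of all genes were.

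Stress and immediate early genes moved in some of the same cells. This list of 20 holds genes induced by tissue digestion and by many stimuli, such as Fos, Jun and the heat shock gene Hspa1a, and Myc itself is known as an immediate early gene. In endothelium the 20 genes summed to 16952 and 16841 CPM in cold against 8805 and 4889 at room temperature. All 20 were higher in both cold libraries, 0 passed by edgeR (20 at an unadjusted p under 0.05) and 11 by DESeq2. Over all genes in endothelium 10.8% had an unadjusted p under 0.05, and DESeq2 called 69 of 10332. In fibroblasts they summed to 27567 and 22765 CPM in cold against 16002 and 11005 at room temperature. There 4 of 20 rose, where 2.6% of all genes passed, Hspa1a by a log2 fold change of 2.83 ± 0.18 (adjusted p = 0.0114, edgeR). In T cells they summed to 5920 and 4767 CPM in cold against 5286 and 3820 at room temperature, the groups overlapping. There 1 of 20 rose, where 1.88% of all genes passed (Hspa1b, adjusted p = 0.0325, edgeR, and 0.127 by DESeq2). Dendritic and natural killer cells had 7 of 20 higher past the edgeR threshold each, where 0.227% and 1.58% of all genes passed. The part of these genes' response in the Myc and Rrs1 values was not tested.

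Genes of T-cell activation were lower in cold as a sum. The 10 listed summed to 604 and 801 CPM in cold against 836 and 1097 at room temperature, without overlap, with a median log2 fold change of -0.73 and 7 of 10 below 0. At an unadjusted p under 0.05 there were 5 lower and 2 higher, where 1076 and 949 of all 10130 genes were. Over all genes 146 fell and 44 rose past the adjusted edgeR threshold. Of the 10 listed 1 rose past it (Ifng, named after its values were seen, 19.2 and 40.9 CPM against 6.72 and 4.95, adjusted p = 0.0340, edgeR). Another 1 of the 10 fell (Icos, 171 and 189 CPM against 305 and 309, adjusted p = 0.0170, edgeR). Tnfrsf4 and Icos, both listed, are leading genes of the Tnfrsf4-led cluster of regulatory type. By UMIs that cluster made up 6.92% and 9.77% of the T-cell class in cold against 11.2% and 18.5% at room temperature, without overlap. By cells its share overlapped between the groups. The part of this cluster in the sum and in the Icos value was not tested. Of 6 genes of naive T cells 2 fell, Ccr7 at 412 and 362 CPM against 676 and 710 (adjusted p = 0.0231, edgeR) and S1pr1 at 107 and 102 against 176 and 151 (adjusted p = 0.0398, edgeR), cold first in each pair. Without the proliferating cluster Ifng (0.0956), Ccr7 (0.0692) and S1pr1 (0.0985) missed the threshold and Icos kept it (0.0469). Ifng also missed it without room-temperature library 2 (0.0786), Icos and Ccr7 without cold library 2 (0.0541 and 0.0640), and S1pr1 without cold library 1 (0.0611) or 2 (0.158). Markers of mast cells (3 of 3 detected) summed to 59.9 and 0.481 CPM in cold against 671 and 62.0 at room temperature in the T-cell class, highest in room-temperature library 1. Their part in the values was not tested. Markers of dendritic cells, which include Ccr7, summed to 417 and 364 CPM in cold against 685 and 712 at room temperature.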

How the data were processed

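Whole-number UMI counts per gene and cell were deposited for 4 libraries, 2 from cold and 2 from room-temperature mice. Per the file headers and the submitters' processing notes the authors used Cell Ranger 3.0.2 with mm10 (GRCm38), and they also name Seurat. Which annotation release was used is not stated in them.

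Kept were cells in which 500 or more genes were detected and mitochondrial UMIs made up less than 15%, and the highest doublet scores (0.8% per 1000 cells, simulated doublets; 74 to 239 cells per library) were removed. Counts were scaled to 10000, and 2000 variable genes, 30 components, 15 neighbours and Leiden clustering at resolution 1 were used, with no batch correction (leidenalg 0.10.2 and igraph 0.11.9 in Python 3.11.15, with scikit-learn 1.9.0, pandas 2.3.3, scipy 1.17.1 and numpy 2.4.6). A cluster took a class name from at least 3 markers, each in 10% of cells and a log2 of 1 above the median cluster. Clusters with markers of 2 classes within a margin of 1 were called mixed. Names may differ from the authors' own.

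UMIs were summed per library and class and tested by class with edgeR 4.0.16 (TMM, filterByExpr, quasi-likelihood F-test, Benjamini-Hochberg, threshold 0.05; R 4.3.3, limma 3.58.1). CPM are relative to all UMIs of the class in a library, and fold changes use TMM, so the signs can differ for small changes. UMIs from the 3′ end are not scaled to gene length, and levels of different genes are not compared. DESeq2 1.42.0, other scaling, no filter, the replicate block, left-out libraries, kept doublets and resolution 2 were alternatives.

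The 34 genes and all lists were chosen with earlier results of these data known. Named are Myc in every class, the 4 members of largest fold change with a mean of at least 20 CPM in each class of the choice, and up to 3 called genes of each other list; other members are given to complete their role. The labels do not say that a replicate number marks shared animals or a shared day, so the main design has no replicate block. The script was tested on simulated data.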

Additional observations from a re-analysis of the deposited data

Results flagged for a closer look

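For each of 6 genes flagged, both cold libraries had higher CPM than both controls in one class and lower CPM in another. The 6 are not all the genes of this kind. Npm1, for example, was also higher in T cells and lower in alveolar progenitors without overlap. The difference between the classes was not tested, and the contrasts are among those that chose the genes. Myc was higher in cold in T cells and lower in luminal hormone-sensing cells, and its log2 fold changes differed by 2.8. Against luminal alveolar progenitors, where each was lower in cold, the log2 fold change differed by 1.37 for Gar1 and 0.821 for Ddx21 in T cells, by 1.25 for Gnl3 and 1.11 for Nop58 in endothelium, and by 0.998 for Wdr43 in fibroblasts. For Ddx21 the T-cell libraries were level (116 and 117 against 116 and 116 CPM) and its T-cell log2 fold change was -0.06, so the fitted values do not point in opposite directions.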

How the results depend on the processing

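Of 265 alternative values for 25 fold changes, 247 kept their direction and side of the threshold, 1 lost the threshold (Rrs1 in fibroblasts without cold library 1, 1.03), 11 newly passed it and 6 reversed. The reversed values were Myc in natural killer cells (-0.11 without room-temperature library 1; range -0.11 to 0.50 over left-out libraries), in dendritic cells (0.14 without cold library 2, 0.35 without room-temperature library 1; range -0.43 to 0.35) and in macrophages (-0.048 without cold library 2, -0.047 with doublets kept; range -0.048 to 1.07), and Nop58 in fibroblasts (-0.21 without cold library 1; range -0.21 to 0.95). With no low-count filter 3 members passed in T cells, where 986 of 17041 genes did, and 3 in fibroblasts, where 1454 of 18402 did. In that setting 3 passed in alveolar progenitors (378 of 15189 genes did) and 1 in macrophages (786 of 17540 genes did). With the replicate block 5 members passed in T cells, 2 in fibroblasts and 2 in macrophages (Polr1a, adjusted p = 0.00482, and Wdr43, 0.0480, edgeR). Over all genes 1050 of 10130 passed with the block in T cells, 1123 of 11629 in fibroblasts and 930 of 11295 in macrophages. Without the block these were 190, 302 and 51. The SE of Myc in endothelium went from 0.47 to 0.22 with the block. Deviations of same-numbered libraries correlated from -0.21 to 0.35 by class (0.35 in macrophages, 0.27 in fibroblasts, 0.24 in dendritic cells, 0.16 in T cells), and 2 pairs cannot settle whether the numbers pair the libraries. Leaving out each library gave 1 to 1 members in T cells, 0 to 1 in fibroblasts, 0 to 2 in alveolar progenitors, 0 to 1 in macrophages and 0 to 1 in endothelium. How many of all genes passed in each of those fits is not given here, so nothing is read from these member counts. Without thinning the share of T cells with a Myc UMI was 17.2%, 20.9%, 6.24% and 7.26%, cold first. At 1000 UMIs it was 3.33%, 5.24%, 0.842% and 1.17%, in the same order. The cause was not tested. Leaving out single clusters, the alveolar depth limit and the pooled epithelium were chosen after seeing the data. With 2 libraries per group the error is itself poorly known, and low UMI totals limit pericytes and alveolar progenitors.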

Other observations

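A cluster with markers of both B and T cells held Myc at 92.2 CPM in cold library 2 and at 34.7 and 26.8 CPM at room temperature. It had 1 cell in cold library 1, so the groups were not compared. In B cells 3 of 33 members had an unadjusted p under 0.05, where 5.63% of all genes did, and were lower in cold in both libraries: Ddx21 stood at 72.2 and 94.4 CPM against 131 and 167, Nop10 at 157 and 208 against 277 and 304, and Nolc1 at 34.1 and 55.1 against 80.7 and 70.8. None passed the edgeR adjustment (adjusted p = 0.849 for each).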
